A study of Saccharomyces cerevisiae with 18 samples.

Results

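A group of 10 oxidoreductase genes of Saccharomyces cerevisiae was followed: OSI1 (YKL071W), the old yellow enzyme genes OYE2 (YHR179W) and OYE3 (YPL171C), and the 7 aryl-alcohol dehydrogenase-like genes AAD3 (YCR107W), AAD4 (YDL243C), AAD6 (YFL056C), AAD10 (YJR155W), AAD14 (YNL331C), AAD15 (YOL165C) and AAD16 (YFL057C). The genes were taken by name, and all 10 had a value on every array, out of 5739 genes with values. The group was chosen in part by the rise of OSI1 in EPY330, so the strain difference of OSI1 is given below as a description, without a test. The 9 other genes were chosen by family, but with earlier results of these data known, so the counts below are not free of that knowledge.

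The study compared 2 engineered strains, EPY330 and EPY338, on NimbleGen 4-plex expression arrays with 3 labeling methods. Their genotypes are not given in the sources used here. For both strains, 3 colonies were pre-cultured in synthetic medium lacking histidine, methionine and leucine and induced for 24 h in YPG medium, and the RNA of the cultures was pooled. Each pool was labeled in triplicate by the direct random method (reverse transcription from dye-tagged random primers), the indirect method (dye coupled to the cDNA after reverse transcription) and the ds-cDNA method (double-stranded cDNA copied from dye-tagged random primers). This gave 18 arrays in 6 groups of 3. The arrays of a group were separate labelings of 1 pool, so their spread, and every p-value below, covered labeling and hybridization but not differences between cultures. The values were log2 intensities, 1 for each gene and array, between 7.25 and 15.88 over all genes. The array medians lay between 9.99 and 10.12, and replicate arrays correlated at between 0.991 and 0.998 across genes. The number of arrays limits the precision of all values. Since each gene has its own probes, the levels of different genes are not compared, and a change in RNA per cell cannot be told apart from a change in the share of cells that express a gene.

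The enzymes of this group use NADPH or NADH to reduce reactive carbonyl compounds, or are predicted to do so from their sequence. The old yellow enzymes are flavoproteins that reduce the carbon-carbon double bond of unsaturated aldehydes and ketones. The AAD genes are named for their similarity to the aryl-alcohol dehydrogenase of the fungus Phanerochaete chrysosporium and belong to the aldo-keto reductases. No clear function is known for most of them, and several lie near chromosome ends. OSI1 is an oxidoreductase gene of the short-chain dehydrogenase family, named for its induction by oxidative stress. The transcription factor Yap1 is the main activator of such genes when the cells meet oxidants or electrophiles. The AAD genes are similar in sequence. Probe sequences were not used here, so how far labeled cDNA of one AAD gene bound to the probes of another was not tested. In the yeast annotation of assembly R64, AAD6 is listed as a pseudogene and AAD16 has no entry under its systematic name.

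OSI1 had the largest difference between the strain means among the 10 genes with each method, though by ds-cDNA labeling OYE3 was close (0.97 and 0.94). Every EPY330 array of OSI1 lay above every EPY338 array of the same method. As OSI1 was chosen for its rise, its lead, this separation and the ranks below are a description only. By direct random labeling it measured 9.49, 9.63 and 9.53 on the EPY330 arrays, against 7.84, 7.77 and 7.96 on the EPY338 arrays. On the indirect arrays the values were 9.21, 9.44 and 9.35 in EPY330 and 7.97, 8.01 and 8.03 in EPY338. In ds-cDNA labeling they were 10.81, 10.81 and 10.52 in EPY330 and 9.74, 9.76 and 9.71 in EPY338. The EPY338 arrays of the direct random and indirect methods were thus at most 8.03, near the lowest value of any gene, while those of the ds-cDNA method were at least 9.71. The fold-change, EPY330/EPY338, was 3.23 by direct random labeling, 2.51 by indirect labeling and 1.96 by ds-cDNA labeling. Ranked by this difference from the highest of the 5739 genes, OSI1 was at place 20 by direct random labeling, 28 by indirect labeling and 37 by ds-cDNA labeling.

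**Figure D1:**
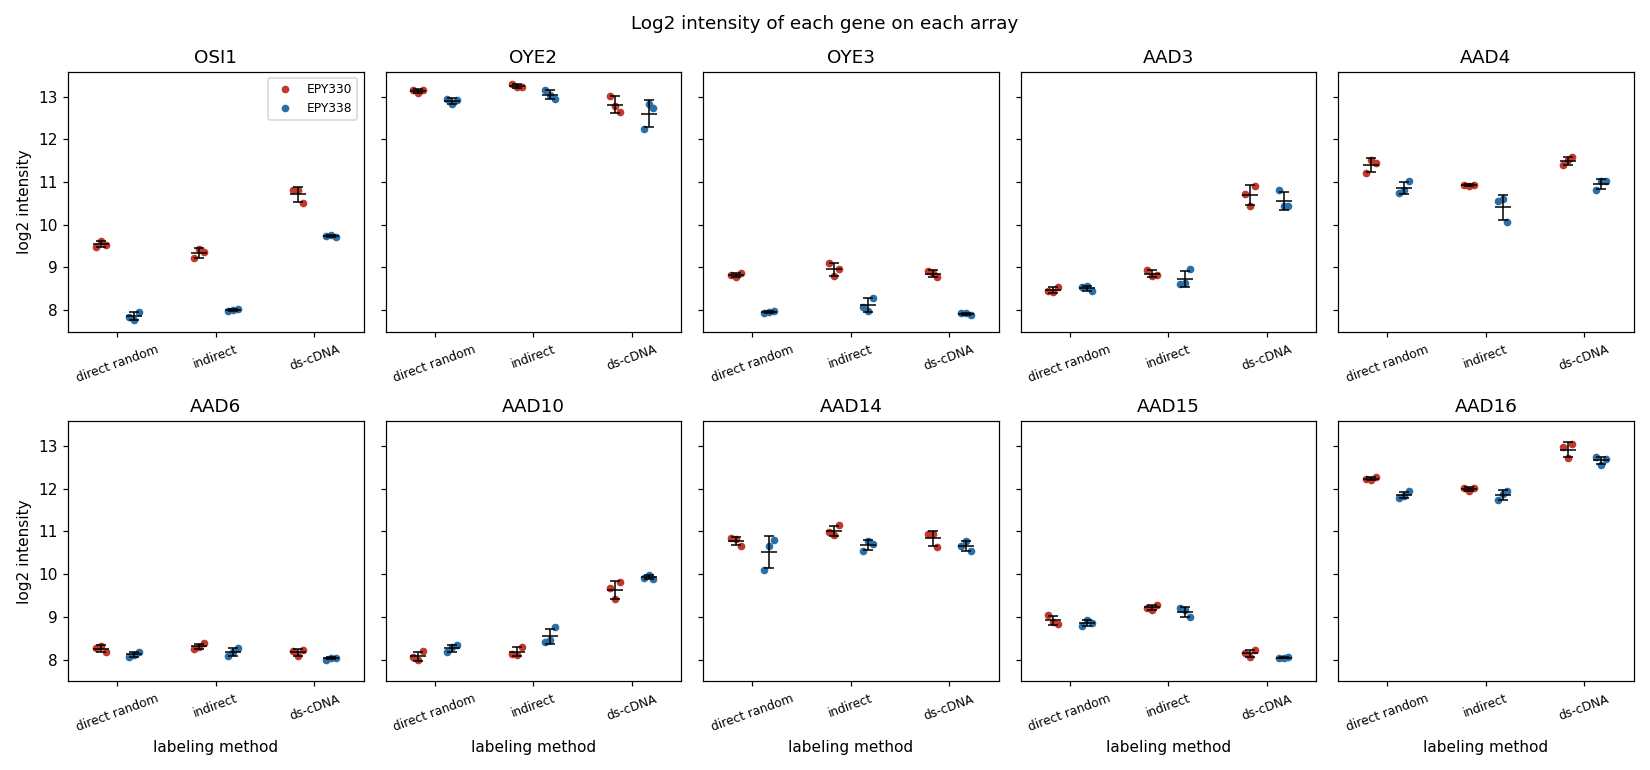
Log2 intensity (vertical axis) of each of the 10 genes on the EPY330 (red, left) and EPY338 (blue, right) arrays of each labeling method. Points are single arrays, and black bars are the mean ± SD (n = 3). The strains do not overlap with any method for OSI1, OYE3 and AAD4. OSI1, AAD3 and AAD10 lie more than 1 log2 unit higher by ds-cDNA labeling than with the other methods. Levels of different genes are not comparable.

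OYE3, one of the paired old yellow enzymes, was the only tested gene called higher in EPY330 with all methods. Under direct random labeling it measured 8.83, 8.77 and 8.86 in EPY330 and 7.93, 7.96 and 7.97 in EPY338, a fold-change of 1.82 (log2 difference 0.86, SE 0.04, limma adjusted p = 1.52e-05). By indirect labeling it measured 9.10, 8.80 and 8.96 in EPY330 and 8.08, 7.98 and 8.29 in EPY338, a fold-change of 1.79 (log2 difference 0.84, SE 0.10, limma adjusted p = 0.00228). On the ds-cDNA arrays it measured 8.91, 8.88 and 8.76 in EPY330 and 7.93, 7.92 and 7.87 in EPY338, a fold-change of 1.92 (log2 difference 0.94, SE 0.06, limma adjusted p = 0.000652). The strains did not overlap with any method. By mean intensity, OYE3 was among the dimmest 25% of the genes with every method. The equal-variance test named in the methods no longer called OYE3 by indirect labeling (adjusted p = 0.0669, over all alternatives 7.9e-07 to 0.0731).

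OYE2, the other old yellow enzyme gene, had a smaller measured difference than OYE3 with every method. In direct random labeling it measured 13.15, 13.08 and 13.16 in EPY330 and 12.95, 12.82 and 12.92 in EPY338, a fold-change of 1.17 (log2 difference 0.23, SE 0.05, limma adjusted p = 0.0160). This call was lost without EPY330 replicate 1 (adjusted p = 0.0517) or EPY330 replicate 3 (adjusted p = 0.0515), and it ran between 0.00278 and 0.239 over all alternatives. Under indirect labeling the values were 13.30, 13.23 and 13.22 in EPY330 and 13.15, 13.04 and 12.95 in EPY338. These groups did not overlap, but the difference did not pass the test (log2 difference 0.20, SE 0.07, adjusted p = 0.121). By ds-cDNA labeling the strains overlapped, at 13.02, 12.77 and 12.64 in EPY330 and 12.24, 12.83 and 12.73 in EPY338 (log2 difference 0.21, 95% interval -0.21 to 0.63, adjusted p = 0.524). EPY338 replicate 1 was the lowest of these arrays, and without it the difference was 0.03.

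Among the AAD genes, AAD4 had the largest strain difference, and its size was nearly the same with all methods. Its EPY330 arrays lay above its EPY338 arrays without overlap in each method. On the direct random arrays it measured 11.20, 11.51 and 11.45 in EPY330 and 10.75, 10.82 and 11.02 in EPY338, a fold-change of 1.44 (log2 difference 0.53, SE 0.10, adjusted p = 0.0104). In ds-cDNA labeling it measured 11.40, 11.51 and 11.58 in EPY330 and 10.82, 11.02 and 11.02 in EPY338, a fold-change of 1.46 (log2 difference 0.54, SE 0.08, adjusted p = 0.0151). Both calls were lost with the equal-variance test, at adjusted p = 0.0799 and 0.0751, and the ds-cDNA call also without EPY330 replicate 2, at adjusted p = 0.0609. Over all alternatives the adjusted p of AAD4 lay between 0.000242 and 0.0852 by direct random labeling and between 0.00174 and 0.0769 by ds-cDNA labeling. Under indirect labeling AAD4 measured 10.94, 10.90 and 10.93 in EPY330 and 10.55, 10.61 and 10.06 in EPY338, and the fold-change of 1.43 just missed the threshold (log2 difference 0.52, SE 0.13, adjusted p = 0.0506). EPY338 replicate 3 stood apart there, and without it the difference was 0.34 (adjusted p = 0.0188).

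In the main fit, AAD16 was called higher in EPY330 by direct random labeling alone. It measured 12.24, 12.21 and 12.27 in EPY330 and 11.79, 11.84 and 11.94 in EPY338 with that method, a fold-change of 1.31 (log2 difference 0.39, SE 0.05, adjusted p = 0.00232). By indirect labeling it measured 12.03, 11.94 and 12.03 in EPY330 and 11.73, 11.87 and 11.96 in EPY338 (log2 difference 0.15, SE 0.08, adjusted p = 0.275). On the ds-cDNA arrays it measured 12.99, 12.73 and 13.04 in EPY330 and 12.73, 12.57 and 12.69 in EPY338 (log2 difference 0.25, SE 0.10, adjusted p = 0.180). The strains overlapped with these methods. Over all alternatives the adjusted p of AAD16 lay between 6.03e-05 and 0.0243 by direct random labeling and between 0.0369 and 0.348 by ds-cDNA labeling. The lower ds-cDNA value came from 1 limma fit of all arrays. The strain difference of AAD16 was not shown to differ between methods (direct random minus indirect 0.24, adjusted p = 0.878).

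AAD10 was the one gene measured lower in EPY330 with each method, and it passed the unpaired main test with none. It was among the dimmest 25% of the genes by direct random and indirect labeling. In indirect labeling it measured 8.12, 8.11 and 8.30 in EPY330 and 8.41, 8.46 and 8.75 in EPY338, without overlap (log2 difference -0.36, SE 0.10, adjusted p = 0.0674). Under ds-cDNA labeling it measured 9.67, 9.41 and 9.82 in EPY330 and 9.90, 9.98 and 9.89 in EPY338, again without overlap (log2 difference -0.29, SE 0.11, adjusted p = 0.168). By direct random labeling it measured 8.06, 7.98 and 8.19 in EPY330 and 8.17, 8.28 and 8.34 in EPY338, where the strains overlapped (log2 difference -0.19, SE 0.07, adjusted p = 0.0898). Without EPY330 replicate 3, the direct random difference was -0.25 (adjusted p = 0.0477, over all alternatives 0.0147 to 0.263).

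AAD14 was measured higher in EPY330 with each method but not called. On the indirect arrays it measured 10.99, 10.91 and 11.15 in EPY330 and 10.54, 10.78 and 10.72 in EPY338, without overlap (log2 difference 0.33, SE 0.09, adjusted p = 0.0573). In direct random labeling the EPY330 arrays measured 10.85, 10.83 and 10.67, and the EPY338 arrays 10.11, 10.65 and 10.80. The difference of 0.26 there (SE 0.17, adjusted p = 0.294) rested on EPY338 replicate 1, the lowest of these arrays, and was 0.05 without it. Under ds-cDNA labeling the strains overlapped (log2 difference 0.18, SE 0.11, adjusted p = 0.361).

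For AAD3, AAD6 and AAD15 the main fit called no difference between the strains with any method. By ds-cDNA labeling the EPY330 arrays of AAD6 and AAD15 lay above the EPY338 arrays without overlap. By mean intensity, AAD6 was among the dimmest 25% of the genes with every method. So was AAD3 by direct random and indirect labeling, and AAD15 by ds-cDNA labeling. AAD6 lay between 8.00 and 8.38 on all 18 arrays, and its log2 differences were 0.14, 0.13 and 0.14 by direct random, indirect and ds-cDNA labeling (SE 0.06, 0.07 and 0.06, adjusted p = 0.124, 0.302 and 0.203). The limma fit with a trend in the prior variance called AAD6 higher by direct random (adjusted p = 0.0381) and ds-cDNA labeling (adjusted p = 0.0352). The differences of AAD15 were 0.06, 0.10 and 0.11 (adjusted p = 0.537, 0.481 and 0.330) and those of AAD3 -0.04, 0.12 and 0.14 (adjusted p = 0.600, 0.539 and 0.656). The 95% intervals for AAD3 reached from -0.17 to 0.08 by direct random labeling, from -0.12 to 0.35 by indirect labeling and from -0.23 to 0.50 by ds-cDNA labeling. The log2 differences of AAD4 lay above the upper bounds of these intervals. Its own 95% intervals by indirect (0.21 to 0.82) and ds-cDNA labeling (0.35 to 0.74) overlapped those of AAD3. AAD3 and AAD4 were not compared by a test.

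**Figure D2:**
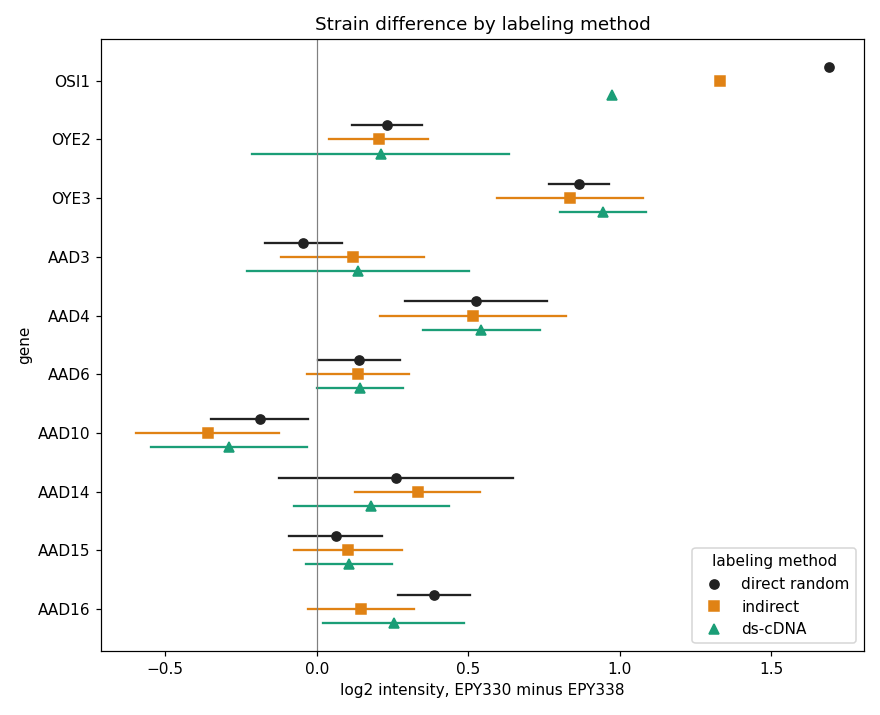
Difference of mean log2 intensity, EPY330 minus EPY338 (horizontal axis), for each gene and labeling method. Symbols are the differences of 3 EPY330 and 3 EPY338 arrays, and lines are 95% intervals from limma, left out for OSI1, which was chosen for its difference. OYE3 lies between 0.84 and 0.94 and AAD4 between 0.52 and 0.54 with all methods, whereas OSI1 lies at 1.69, 1.33 and 0.97 and AAD10 lies below 0.

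Counted over the 9 tested genes, 4 were called higher in EPY330 by direct random labeling (OYE2, OYE3, AAD4 and AAD16), where 11.0% of all genes were. By indirect labeling 1 of 9 was called higher (OYE3), against 4.48% of all genes, and by ds-cDNA labeling 2 of 9 (OYE3 and AAD4), against 3.76%. None of the 9 was called lower by the unpaired main limma fit with any method, where 11.4%, 4.60% and 2.56% of all genes were called by direct random, indirect and ds-cDNA labeling. Other limma fits called AAD10 lower, among them a prior variance with a trend (adjusted p = 0.0147 by direct random and 0.0167 by indirect labeling). At an unadjusted p under 0.05 there was 1 lower gene of the 9 with each method, AAD10, beside 19.9%, 14.5% and 11.9% of all genes. The equal-variance test called 0 of the 9 lower after adjustment, beside 5.49%, 1.06% and 0.854% of all genes. Leaving out OSI1, the strains did not overlap for 4 of the 9 genes by direct random labeling, 5 by indirect labeling and 5 by ds-cDNA labeling, and this was so for 41.3%, 30.2% and 29.2% of all genes. The median log2 difference of the 9 genes was 0.23, 0.15 and 0.18 by direct random, indirect and ds-cDNA labeling, and that of the 7 AAD genes 0.14, 0.13 and 0.14. Over all genes the median was -0.0088, -0.023 and 0.0016.

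The indirect counts depended on whether same-numbered replicates were taken as pairs. With a replicate block, 4 of 9 genes were called by indirect labeling, namely OYE3, AAD4 (adjusted p = 0.0205) and AAD14 (adjusted p = 0.0388) higher and AAD10 (adjusted p = 0.0155) lower in EPY330, where the block raised the share of all genes called in either direction to 12.2%. Over all alternatives the adjusted p by indirect labeling lay between 0.00736 and 0.224 for AAD4, between 0.0388 and 0.195 for AAD14 and between 0.0155 and 0.256 for AAD10.

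Whether the strain difference itself depended on the labeling was tested by the interaction of strain and method over all 18 arrays. OSI1 was left out of these tests, as they rest on the strain difference for which it was chosen. As a description, its log2 difference of 1.69 by direct random labeling was 0.72 above that of 0.97 by ds-cDNA labeling, and the indirect value of 1.33 lay 0.36 from both. The gap of 0.72 ran between 0.62 and 0.77 over the 24 alternatives.

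Of the 9 other genes, limma called 0 between direct random and indirect labeling (0% of all genes), 0 between direct random and ds-cDNA labeling (0.575% of all genes) and 0 between indirect and ds-cDNA labeling (0.697% of all genes). At an unadjusted p under 0.05 there were 1 (AAD16), 0 and 0 of the 9, beside 5.66%, 10.0% and 11.5% of all genes. Their strain differences differed between methods by -0.18 to 0.24 log2 units, with adjusted p of 0.761 or above. The intervals were widest for AAD14, where the direct random minus indirect difference of -0.07 had a 95% interval of -0.49 to 0.34. For OYE3 the same interval was -0.21 to 0.27, around a difference of 0.03.

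The choice of genes had not used their intensity by each method, taken here as the mean of the arrays of both strains. The methods differed in more than the labeling reaction. By the paper, the amount of cDNA hybridized differed between methods, the indirect method used another dye, and the scanner gain was set for each array. How far these, or the normalization, shaped the differences in intensity was not tested. Among the 10 genes, levels by ds-cDNA labeling stood farthest from the others for OSI1, AAD3, AAD10 and AAD15. Over all genes, the median size of the difference from ds-cDNA labeling, whatever its sign, was 0.63 by direct random and 0.70 by indirect labeling. OSI1 averaged 8.70 by direct random labeling, 8.67 by indirect labeling and 10.23 by ds-cDNA labeling. The direct random minus ds-cDNA difference was -1.52 (SE 0.06, adjusted p = 3.29e-14), while the direct random and indirect levels did not differ beyond their spread (difference 0.03, SE 0.06, adjusted p = 0.609). AAD3 averaged 8.49, 8.79 and 10.62 by direct random, indirect and ds-cDNA labeling, and AAD10 averaged 8.17, 8.36 and 9.78. Their direct random minus ds-cDNA differences were -2.13 (SE 0.08, adjusted p = 7.95e-14) and -1.61 (SE 0.07, adjusted p = 5.11e-13). The ds-cDNA level was thus the highest for these genes, and the indirect level above the direct random one (adjusted p = 0.00487 for AAD3 and 0.0305 for AAD10).

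AAD15 was instead lowest by ds-cDNA labeling, with averages of 8.88, 9.17 and 8.09 by direct random, indirect and ds-cDNA labeling. Its indirect minus ds-cDNA difference was 1.08 (SE 0.05, adjusted p = 5.89e-13), and its direct random minus ds-cDNA difference was 0.79. AAD16 averaged 12.05, 11.93 and 12.79 by direct random, indirect and ds-cDNA labeling, so that the ds-cDNA level was the highest. The direct random level lay 0.74 below it (SE 0.06, adjusted p = 7.73e-10). The main fit, which pools the spread of all 6 groups, did not call the direct random minus indirect difference of 0.12 (adjusted p = 0.0676). With weights per method it was called (adjusted p = 0.0408). AAD4 averaged 11.13, 10.66 and 11.22, lowest by indirect labeling. OYE2 averaged 13.01, 13.15 and 12.71, lowest by ds-cDNA labeling. Its direct random and indirect levels were not called different (adjusted p = 0.175, over all alternatives 0.0514 to 0.31). After quantile normalization of all arrays, its direct random minus ds-cDNA difference was 0.13 (adjusted p = 0.177), in place of 0.31 (adjusted p = 0.00261).

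The averages of OYE3, AAD6 and AAD14 spanned 8.38 to 8.54, 8.10 to 8.24 and 10.65 to 10.85 over the methods. The direct random minus ds-cDNA difference of AAD6 was 0.09 (adjusted p = 0.0799), but 0.19 after median centring (adjusted p = 0.000835) or quantile normalization of all arrays (adjusted p = 0.000467). That of OYE3 was 0.01 (adjusted p = 0.912), but 0.14 after this quantile normalization (adjusted p = 0.0145). Of the 10 genes, 5 differed in intensity between direct random and indirect labeling, where 64.5% of all genes did. Between direct random and ds-cDNA labeling 6 differed (87.1% of all genes), and between indirect and ds-cDNA labeling 9, all but AAD14 (89.0% of all genes). These counts were close to or below the shares of all genes. The median over all genes of the direct random minus ds-cDNA difference was -0.12, and that of the indirect minus ds-cDNA difference was -0.089.

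The genes whose 3 strain differences lay nearest to those of OSI1 were YGR161W-C, COM2, HSP31, RSB1 and SKS1, by Euclidean distance of 0.27 to 0.52 log2 units. HSP31 encodes a methylglyoxal-degrading protein of the DJ-1 family, RSB1 a membrane protein for the export of sphingoid bases, COM2 a transcription factor and SKS1 a protein kinase. YGR161W-C was the nearest, with log2 differences of 1.53, 1.47 and 0.80 by direct random, indirect and ds-cDNA labeling, against 1.69, 1.33 and 0.97 for OSI1. HSP31 measured 1.35, 1.39 and 1.17, and RSB1 1.51, 1.48 and 0.58. These values are a description over 3 methods that labeled the same RNA.

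Related genes were counted by function, in lists drawn up with earlier results of these data known. Of 16 genes, YAP1 and known targets of its product, 6 were called higher and 1 lower in EPY330 by direct random labeling, 4 and 1 by indirect labeling and 3 and 1 by ds-cDNA labeling. Over all genes, 11.0%, 4.48% and 3.76% were called higher and 11.4%, 4.60% and 2.56% lower, which is also the background of the groups that follow. GRE2, a methylglyoxal reductase, rose with all methods, with log2 differences of 1.86, 2.12 and 2.05 (adjusted p = 3.70e-07, 6.12e-05 and 6.46e-05). SNQ2, a multidrug transporter that other factors also control, rose by 1.78, 2.07 and 1.58, and GSH1, which starts glutathione synthesis, by 0.37, 0.43 and 0.48. GLR1, glutathione reductase, fell, at -0.43, -0.52 and -0.54. GPX2, a glutathione peroxidase, rose by direct random (0.54) and indirect (0.48) labeling and stood at 0.23 by ds-cDNA labeling (adjusted p = 0.0503). YAP1 itself was at 0.37, 0.27 and 0.25 and was called by direct random labeling alone (adjusted p = 0.00216, 0.0629 and 0.149). The median of the 16 genes was 0.11, 0.053 and 0.099, beside -0.0088, -0.023 and 0.0016 over all genes. FLR1, ATR1 and TRR1, other known targets, lay between -0.06 and 0.11 and were not called.

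The 7 other aldo-keto reductases, the superfamily to which the AAD proteins belong, held no gene called higher in EPY330 with any method, and 2, 1 and 2 were called lower by direct random, indirect and ds-cDNA labeling. GCY1, a glycerol dehydrogenase, fell with all methods (log2 differences -0.45, -0.49 and -0.63, adjusted p = 0.00216, 0.00389 and 0.00332). The median of the 7 genes was -0.14, -0.20 and -0.21. Of 13 other alcohol, aldehyde and quinone reductases, 6 were called higher and 2 lower by direct random labeling, 4 and 0 by indirect labeling and 5 and 0 by ds-cDNA labeling. BDH2, similar to butanediol dehydrogenase, rose most (log2 differences 2.15, 2.26 and 1.87, adjusted p = 2.70e-06, 1.27e-06 and 0.000652). The aldehyde reductase genes YNL134C (1.10, 1.11 and 1.14) and ARI1 (0.53, 0.51 and 0.66) rose too, as did YLR460C (0.49, 0.51 and 0.42), which resembles quinone reductases. Its relative YCR102C rose by direct random (0.24) and ds-cDNA (0.39) labeling and stood at 0.25 by indirect labeling (adjusted p = 0.0612). The median of the 13 genes was 0.18, 0.21 and 0.17.

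**Figure D3:**
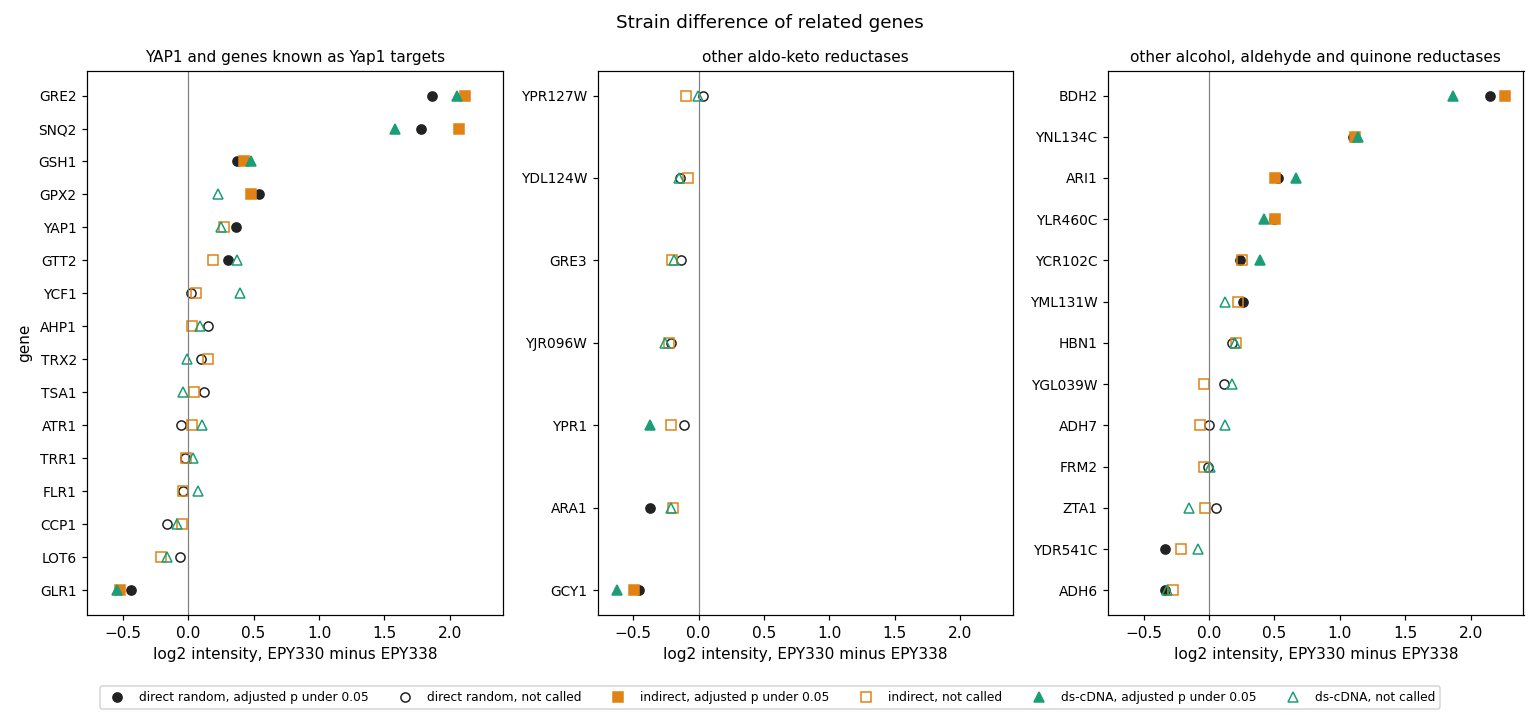
Difference of mean log2 intensity, EPY330 minus EPY338 (horizontal axis), of YAP1 and known Yap1 targets, of other aldo-keto reductases, and of other alcohol, aldehyde and quinone reductases, 1 row per gene. Filled symbols passed limma at adjusted p under 0.05 and open symbols did not. GRE2, SNQ2 and BDH2 lie above 1.5 with all methods, while GCY1 and GLR1 lie below 0.

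AAD16 has no entry in the R64 annotation, so only the other members have neighbours here, and THI5 is listed beside AAD6. Of 16 measured genes next to these members, 0 were called higher and 4 lower in EPY330 by direct random labeling. By indirect labeling 1 and 2 were called, and by ds-cDNA labeling 0 and 0. In either direction, 22.4%, 9.08% and 6.33% of all genes were called by these methods. Beside OSI1, STB6 was called higher by indirect labeling alone (log2 differences 0.10, 0.37 and 0.35, adjusted p = 0.276, 0.00626 and 0.0806), and YKL070W was not called (0.11, 0.10 and -0.27, adjusted p = 0.0753, 0.376 and 0.0514). DAP1, a heme-binding protein gene beside OYE3, was lower by direct random (-0.27) and indirect (-0.36) labeling and stood at -0.34 by ds-cDNA labeling (adjusted p = 0.196). AAD4, AAD6, AAD10 and AAD14 lie beside a gene of the THI5 family, which makes the pyrimidine part of thiamine. THI5, beside AAD6, was lower by direct random (-0.30, adjusted p = 0.00253) and indirect (-0.34, adjusted p = 0.0438) labeling, and THI12, beside AAD14, by direct random labeling (-0.23, adjusted p = 0.0486). THI13, beside AAD4, stood at -0.06, -0.27 and -0.04 and THI11, beside AAD10, at -0.13, -0.22 and -0.06, and neither was called. The THI5 family genes are near-identical copies, so their values may share signal.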

How the data were processed

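The deposited table holds 1 value per gene and array on the log2 scale. The authors extracted feature intensities with NimbleScan and summarized and normalized them in ArrayStar (RMA algorithm, quantile normalization). Which arrays were normalized together, and the genome build of the probes, are not given in the sources used here, so no coordinates are printed. Of 5861 rows, 122 held no value and were dropped. No other filter was applied.

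Strains were compared within the 6 arrays of each method with limma 3.58.1 in R 4.3.3 (lmFit, eBayes), and methods and interactions with limma on all 18 arrays and 6 group means. P was adjusted over all 5739 genes by the Benjamini-Hochberg method, and a gene was called at adjusted p under 0.05. The interaction of OSI1, planned as a test, is given without one. These steps were tested on simulated data. Alternatives were the equal-variance test named in the study's methods, a prior variance with a trend, median centring, quantile normalization, a filter on dim genes, 1 fit of all arrays, weights per method, a replicate block and leaving out each array. Symbols and neighbours came from the R64 annotation. Plots came from matplotlib 3.10.9 (Python 3.11.15).

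The members and gene lists were chosen with earlier results of these data known. Named were all members, up to 6 genes of each list called with at least 2 methods, both neighbours of OSI1 and any neighbour called with at least 2 methods, and the 5 genes nearest to OSI1. FLR1, ATR1, TRR1, YAP1 and the other THI genes were named after their values were seen. Alignment of the AAD proteins and a motif search were planned but not made, as sequences were not used here.

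Same-numbered arrays of the strains deviated together from their group means with the indirect method (correlations across genes 0.123, 0.149 and 0.253), and not with the direct random (0.0084, -0.097 and -0.040) or ds-cDNA (-0.082, 0.023 and -0.19) methods. One of the indirect pairs with different numbers reached 0.205. By the limit of 0.1 set for pairs, only the indirect numbers count as pairs, and the unpaired fit, as in the study's methods, is given with the block beside it.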

Additional observations from a re-analysis of the deposited data

How the results depend on the processing

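The number of the 9 tested genes called between strains depended on the test. With the equal-variance test, on log2 or linear values, it was 2 by direct random labeling, 0 by indirect labeling and 1 by ds-cDNA labeling, in place of 4, 1 and 2. On the indirect arrays it was 4 with a prior variance with a trend, 4 with a replicate block, 3 with 1 fit of all arrays and 2 without the dimmest 25% of the genes. That filter removed OYE3 and left 1 call by ds-cDNA labeling. The trend raised the count to 6 by direct random labeling (AAD6 and AAD10 added) and to 3 by ds-cDNA labeling (AAD6 added). With 1 fit of all arrays the count was 3 with both methods, without OYE2 by direct random and with AAD16 by ds-cDNA labeling. Leaving out single arrays gave 1 to 2 calls by indirect labeling (2 without EPY338 replicate 3) and 1 to 2 by ds-cDNA labeling (1 without EPY330 replicate 2). The block changed no other member call but AAD16 between direct random and indirect intensity (adjusted p = 0.0432), and it lowered the ds-cDNA calls over all genes to 115, against 363 without it. For the alternatives other than the block, the share of all genes called in either direction is not given here. These counts are therefore not read as results about the members, and the same holds for the intensity counts below.

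For intensity, the count between direct random and indirect labeling was 2 without the dimmest genes and 3 to 6 with single arrays left out, with 3 when direct random EPY330 replicate 2 or EPY338 replicate 1 was missing. Between indirect and ds-cDNA labeling it was 5 without the dimmest genes, which removed 4 of the 9. No interaction count changed. Signs turned only for differences near 0 that were not called. These were AAD15 between strains by direct random labeling (0 to 0.103 with single arrays left out), and, for direct random minus ds-cDNA intensity, AAD4 (0.004) and AAD14 (0.001) after median centring, OYE3 (-0.015 to 0.022) and AAD14 (-0.171 to 0.002) with single arrays left out. The 3 arrays per group limit all tests, and no background level was used here.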
